A study of Homo sapiens with 12 samples.

Results

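The chemokines described here are CCL2, CCL3, CCL4, CCL7, CCL8, CXCL1, CXCL2, CXCL8, CXCL10 and CXCL16, taken from the table of estimated counts by gene name. All 10 were found, each under 1 of the 62703 gene identifiers, of which 36924 had at least 1 count. Their mRNA was measured by poly(A) RNA-seq in iMGLs, microglia-like cells made from the human iPSC line WTC11 by way of hematopoietic precursor cells. Each library came from 1 of 6 edited clones, of which 3 were WT (J, K and L, marked in the count table as scrambled controls) and 3 were LACTB KO (A, B and C). The cells of a clone were differentiated to iMGLs on 2 occasions, which the labels call batches, so there were 12 libraries, named here by clone and differentiation (J1 is clone J, differentiation 1). All groups had the same isogenic background and the same medium, with IL34, TGFb and MCSF and later CX3CL1 and CD200, and none had any further treatment. CX3CL1 is itself a chemokine, so all cells had met an added chemokine before harvest. The KO is limited as a model in that each line is 1 clone obtained by CRISPR and end joining, and the cells are cultured microglia without neurons or tissue.

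Chemokines are small secreted proteins that guide cells along a gradient by binding receptors coupled to G proteins. CC chemokines such as CCL2, CCL7 and CCL8 attract monocytes through CCR2 and related receptors, and CCL3 and CCL4 attract macrophages and T cells, CCL3 in part through CCR1. CXCL1, CXCL2 and CXCL8 attract neutrophils through CXCR2, CXCL10 attracts T and NK cells through CXCR3, and CXCL16 is made as a membrane protein that binds CXCR6 and is released by proteases. In microglia and macrophages most of these genes are switched on quickly by NF-kB and AP-1, CXCL10 mainly by interferon, and their mRNAs, rich in AU elements, are short-lived.

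On GRCh38, the 10 genes lie on 2 chromosomes (GENCODE 44). CCL2 (ENSG00000108691.10, chr17:34255274-34257208, plus strand), CCL7 (chr17:34270221-34272242, plus) and CCL8 (chr17:34319435-34321402, plus) neighbor each other, and CCL3 (ENSG00000277632.2, chr17:36088256-36090169, minus) lies beside CCL4 (ENSG00000275302.2, chr17:36103827-36105621, plus). CXCL16 (ENSG00000161921.17, chr17:4733533-4739928, minus) stands alone on the other arm of that chromosome. CXCL8 (ENSG00000169429.12, chr4:73740519-73743716, plus), CXCL1 (ENSG00000163739.5, chr4:73869393-73871308, plus), CXCL2 (ENSG00000081041.9, chr4:74097040-74099196, minus) and CXCL10 (ENSG00000169245.6, chr4:76021118-76023497, minus) are all on chromosome 4. Values below are for whole genes, all exons together.

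Promoter sequences from RefSeq (GRCh38.p14), covering 250 bases before to 50 bases after the start, were found for 7 of the 10 genes. CCL2, CCL4 and CXCL16 had no entry. The windows below are shown because they hold the letters that NF-kB, AP-1 and IRF proteins are known to bind, and the members with like windows did not all have like levels. Capitals mark matches to GGAANTTCC (NF-kB-like, the same on both strands), TGANTCA (AP-1-like, also the same on both strands) and GAAANNGAA (IRF-like, searched on both strands), with no overlap among the marked matches. The windows are chr4:73740412-73740506 (plus strand) for CXCL8, chr4:73869295-73869343 (plus) for CXCL1, chr4:74099244-74099292 (minus) for CXCL2 and chr4:76023645-76023738 (minus) for CXCL10.
CXCL8: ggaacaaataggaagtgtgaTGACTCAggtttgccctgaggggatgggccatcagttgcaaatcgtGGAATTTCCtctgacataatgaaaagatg
CXCL1: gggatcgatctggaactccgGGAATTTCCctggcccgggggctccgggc
CXCL2: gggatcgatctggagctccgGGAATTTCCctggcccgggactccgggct
CXCL10: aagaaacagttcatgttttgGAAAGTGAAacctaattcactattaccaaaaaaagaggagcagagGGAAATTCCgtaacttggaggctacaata
Read base by base without gaps, the CXCL1 and CXCL2 windows were the same at 41 of 49 positions. Both windows were cut around the NF-kB-like match, so part of this likeness follows from how they were chosen. The NF-kB-like letters were in the promoters of 4 of the 7 members (CXCL1, CXCL2, CXCL8 and CXCL10) and in 0.965% of all 35116 promoters. The IRF-like letters were in 3 of 7 (CCL3, CXCL2 and CXCL10) against 8.11% of all, and the AP-1-like letters in 2 of 7 (CCL7 and CXCL8) against 7.71%. The letters TTCNNNGAA (STAT-like) were in CCL7 and CCL8 and in 7.66% of all promoters, and TATAAA in CCL3, CCL7, CCL8 and CXCL8 and in 11.5%. These are matches of letters in short windows, not sites shown to be bound.

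Several facts of the whole series bear on the values. Libraries held 24153233 to 28406943 estimated counts. LACTB, the edited gene, was at 71.6 to 98.1 CPM (counts scaled to a library of equal size after TMM normalization) in the WT libraries and at 9.78 and 9.52 in clone A and 7.93 and 7.49 in clone C, but at 44.4 and 51.6 in clone B, so B had lost far less LACTB mRNA than A and C. Microglia markers were detected for 20 of 20 genes, with a summed level of 8326.2 to 10628.0 CPM. Stromal (fibroblast and smooth muscle) markers were over 3 counts in at least 1 library for 28 of 30 genes. Their sums were 1388.1 to 8608.2 CPM in WT and 1298.5 to 2720.1 in LACTB KO libraries. WT libraries K2 (8608.2) and J1 (7304.4) stood apart in that sum. T and NK cell markers summed to at most 3.04 CPM and erythroid and megakaryocyte markers to 10.4 to 18.3. Granulocyte markers, 7 of 16 over 3 counts in at least 1 library and DEFA3, DEFA4, LCN2 and PRTN3 at 0 in all, summed to 80.5 to 143 CPM. Mast cell and basophil markers, 5 of 12 by the same measure and CLC and CMA1 at 0, summed to 126 to 366 CPM. Endothelial markers, 9 of 10 by that measure, summed to 329 to 444. Of these lists, only 2 granulocyte, 3 mast cell and basophil and 2 endothelial markers passed the expression filter over the 12 libraries. Such sums do not show that a cell type was present. The part of any such cells in the chemokine levels was not tested. In bulk RNA, fewer cells that express a chemokine and less of its RNA per cell cannot be told apart. After the genotype means were removed, deviations over all genes were correlated between K and B (0.251 and 0.606 in differentiations 1 and 2) and between L and C (0.257 and 0.478), but not between J and A (-0.0263 and 0.0341). The labels give no link between these clones, so the 6 clones may not be fully independent, and p-values measure only the spread between these clones and libraries.

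The iMGLs expressed 6 of the 10 chemokines well and the other 4 hardly at all. Per kilobase of exon, the WT mean level was highest for CXCL16 (53.9 ± 6.84 CPM per kb; SD, n = 6 libraries of 3 clones), higher than 95.8% of the genes that passed the expression filter. CCL3 (39.8 ± 26.9) and CXCL8 (36.2 ± 30.0) followed, then CCL2 (15.9 ± 7.44), CCL4 (14.4 ± 8.86) and CXCL1 (9.76 ± 9.02). The ranges over WT libraries overlapped between all neighbors among these 6 genes. CXCL16, at 46.8 CPM per kb in its lowest WT library, was above every WT library of CCL2, CCL4 and CXCL1 (highest 25.4, 26.3 and 27.4). The only gap between neighbors was below CXCL1, whose lowest WT library (2.45 CPM per kb) was above the highest of CXCL10 (0.795). CXCL10 had a mean of 0.567 ± 0.166, CXCL2 0.313 ± 0.308, CCL8 0.158 ± 0.145 and CCL7 0.0867 ± 0.136 CPM per kb. CXCL1 and CXCL2, alike in the short window around the NF-kB-like match, were thus far apart in level, and their WT library ranges did not overlap. Outside that window their promoters differed, with IRF-like letters in CXCL2 and not in CXCL1. These genes may also share reads, which limits the comparison of their levels. The values from here on are in CPM, which are not set per length and are compared only within a gene.

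**Figure D1:**
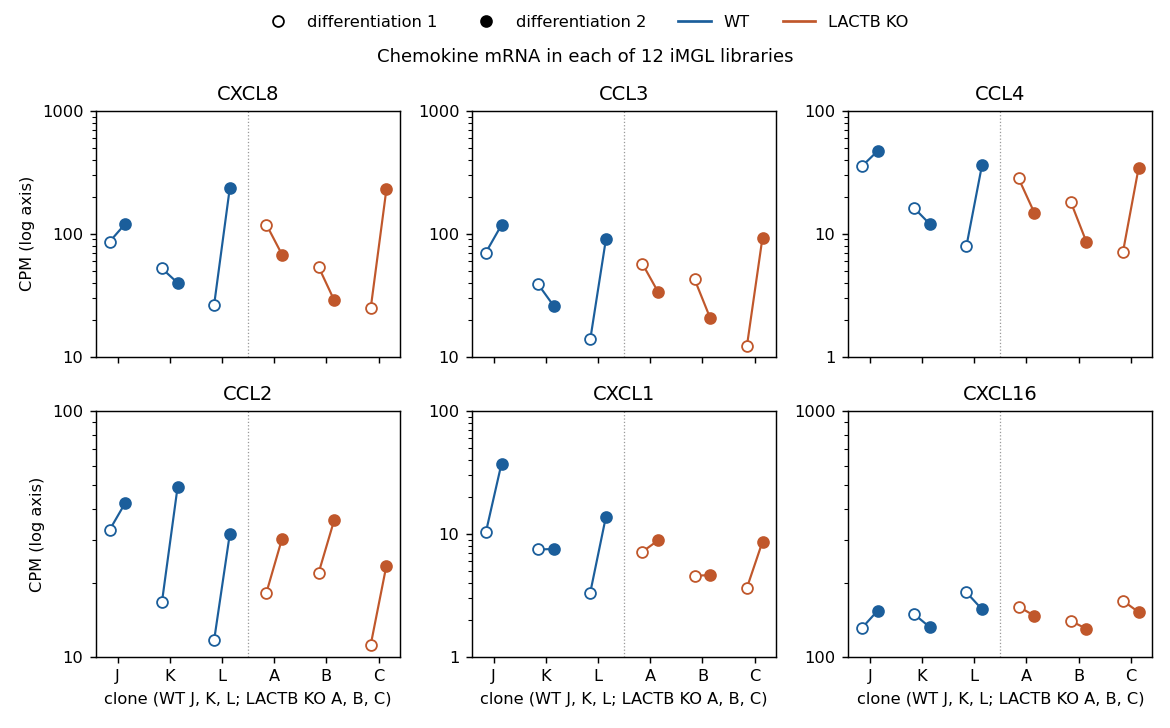
Level in CPM (log axis) of 6 chemokines in each of the 12 libraries, by clone, with WT (J, K, L) in blue and LACTB KO (A, B, C) in orange. Open points are differentiation 1, filled points differentiation 2, and a line joins the libraries of a clone. CXCL8, CCL3 and CCL4 rose steeply in L and C and were lower in differentiation 2 in K, A and B, while CXCL16 stayed between 130 and 183 CPM.

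CXCL8, the main neutrophil attractant in humans, was among the most variable members. In WT libraries it was at 86.5 and 121 CPM in clone J (differentiations 1 and 2), 52.2 and 39.9 in K and 26.5 and 236 in L. In LACTB KO libraries it was at 119 and 67.8 in A, 53.9 and 28.8 in B and 24.9 and 230 in C. The highest library and the lowest of each genotype were thus of the same clone, L in WT and C in LACTB KO, and the genotypes overlapped almost fully. The group means were 93.7 ± 77.6 CPM in WT and 87.4 ± 77.7 in LACTB KO (SD, n = 6 libraries).

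CCL3 (MIP-1 alpha) and CCL4 (MIP-1 beta), neighbors in the genome, followed the same libraries. CCL3 was at 70.4 and 118 CPM in J, 38.9 and 25.9 in K, 13.8 and 90.2 in L, 56.9 and 33.6 in A, 42.5 and 20.5 in B and 12.1 and 93.3 in C. CCL4 ran from 7.11 CPM in C1 to 47.2 in J2. The ratio of CCL3 to CCL4 in CPM, in which the fixed lengths of the genes enter as a constant, stayed within 1.70 and 2.71 in the 12 libraries, while each gene varied 9.72-fold and 6.64-fold. Both genes have near-identical copies, CCL3L1 and CCL4L2, and reads may be divided between a gene and its copy. CCL3L1 held 6.97% to 24.3% of the counts of CCL3 and CCL3L1 together, and CCL4L2 held 19.8% to 44.5% of those of CCL4 and CCL4L2, with the largest share in L2 for both.

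CCL2 (MCP-1), the main monocyte attractant, showed another order of libraries. It was at 32.9 and 42.4 CPM in J, 16.7 and 49.1 in K, 11.7 and 31.6 in L, 18.2 and 30.2 in A, 21.9 and 36.0 in B and 11.2 and 23.5 in C. Within every clone differentiation 2 was the higher, and the highest library was K2, the library with the highest stromal marker sum. CXCL1 (GRO alpha) was at 3.33 to 13.8 CPM in 5 WT libraries and at 37.4 in J2, and at 3.63 to 8.86 in the LACTB KO libraries. J2 and L2 stood above the rest, the next library being J1 at 10.3 CPM.

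CXCL16 was the steadiest member. It was at 131, 154, 149, 132, 183 and 156 CPM in J1, J2, K1, K2, L1 and L2, and at 160, 147, 140, 130, 169 and 152 in A1, A2, B1, B2, C1 and C2. Its standard deviation on the log2 scale was 0.151 over the 12 libraries, against 1.13 for CXCL8, 1.08 for CCL3, 0.949 for CCL4, 0.941 for CXCL1, 0.689 for CCL2 and 0.472 for CXCL10. CXCL16 differs from the others in that its protein is membrane-bound and needs proteases such as ADAM10 to be released. ADAM10 mRNA was at 182 ± 20.6 CPM in WT and 169 ± 12.5 in LACTB KO libraries.

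The other 4 members were near the limit of detection. CXCL10 had 6 to 25 counts in a library, 0.421 to 0.934 CPM in WT and 0.249 to 0.741 in LACTB KO. CXCL2 had 1 to 28 counts, most in J2 (28), L2 (21), A1 (16) and J1 (15). CCL8 had at most 9 counts (J2) and CCL7 at most 8 (J1). CCL7 was at 0 in 9 libraries, including all 6 LACTB KO libraries, and a count of 0 allows up to 3 counts in each, so a loss of CCL7 was not detectable at this depth. These limits cover counting error only.

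The study asks how loss of LACTB changes microglia, and for the chemokines the comparison gave no call. Counts were summed over the differentiations of each clone, and the sums of the 3 LACTB KO clones were set against those of the 3 WT clones (edgeR quasi-likelihood test, Benjamini-Hochberg adjustment over 17577 genes), in which 8 of 10 members passed the filter. None of the 8 had an adjusted p under 0.05, as for 0% of all genes tested, and none had an unadjusted p under 0.05, against 6.36% of all genes (1118). DESeq2, run as an alternative, called 208 genes at an adjusted p under 0.05, none of them a member. All 8 log2 fold changes were below 0, that of CXCL16 only marginally and above 0 by DESeq2 and with no filter, with a median of -0.42 on the log2 scale against 0.01 over all genes tested, but that median was -0.0696 without WT clone J, -0.15 in differentiation 1 alone and -0.76 with the stromal marker level as a covariate.

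Of the neutrophil attractants, CXCL1 had the lowest p. Its log2 fold change was -1.08 with a standard error of 0.473 (unadjusted p = 0.0582 and adjusted p = 0.803, edgeR), from a mean of 13.3 ± 12.3 CPM in WT and 6.25 ± 2.27 in LACTB KO libraries. Without WT clone J, whose library J2 is far above the others, it was -0.35. Its unadjusted p fell under 0.05 with no filter (0.0115) and without clone K (0.0257) or L (0.0327). The same held with the differentiation (0.0432) or the clone pairs (0.0138) as a block. These block settings count the 2 libraries of a clone as separate replicates, so their p-values can be too small. The adjusted p-values in all these settings were 0.394 to 0.696 in edgeR. CXCL2, at 0.438 ± 0.43 CPM in WT and 0.237 ± 0.222 in LACTB KO, had -0.89 with a standard error of 0.762, which became -0.0852 without clone J. CXCL8 had -0.09 with a standard error of 0.477 (adjusted p = 0.971, edgeR), a spread that leaves room for sizeable differences in either direction. With the stromal marker level as a covariate it was -1.41, at an unadjusted p of 0.016 and an adjusted p of 0.994.

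Of the CC chemokines, CCL3 had a log2 fold change of -0.46 (standard error 0.381) and CCL4 of -0.48 (0.387), both with an adjusted p of 0.878 (edgeR). Without WT clone J both turned, to 0.0377 and 0.04. CCL2, at 30.7 ± 14.4 CPM in WT and 23.5 ± 8.73 in LACTB KO, had -0.37 (standard error 0.257), which turned to 0.33 with the stromal level as a covariate. CXCL10 had -0.39 (0.284) and CXCL16 -0.00 (0.104), with CXCL16 means of 151 ± 19.1 and 150 ± 13.9 CPM. With the stromal covariate CXCL16 was at -0.25, with an unadjusted p of 0.0329 and an adjusted p of 0.994 (edgeR). Without WT clone L, CCL2 was at -0.57, with an unadjusted p of 0.0348 and an adjusted p of 0.401 (edgeR). LACTB itself was 0.273-fold (log2 fold change -1.87), with an adjusted p of 0.735. Without clone B its log2 fold change was -3.20 with an adjusted p of 0.0157 (edgeR). With the stromal covariate that of LACTB, the edited gene, shrank to -0.87 (unadjusted p = 0.148, edgeR). The stromal markers were themselves lower in LACTB KO (median log2 fold change -2.36), so the fit with this covariate cannot tell stromal level and genotype fully apart.

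By clone level, the mean of the libraries of a clone, WT and LACTB KO overlapped for 9 of the 10 members. In CCL8 alone the 3 LACTB KO clones were all below the 3 WT clones, as in 6.28% of the genes tested, and with at most 9 counts in a library this cannot be read as a difference. An exact two-sided permutation test over the clones cannot go below 0.1 here. It gave 0.1 for CCL8, 0.2 for CXCL10, 0.3 for CXCL1 and 0.4 to 1 for the other members.

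**Figure D2:**
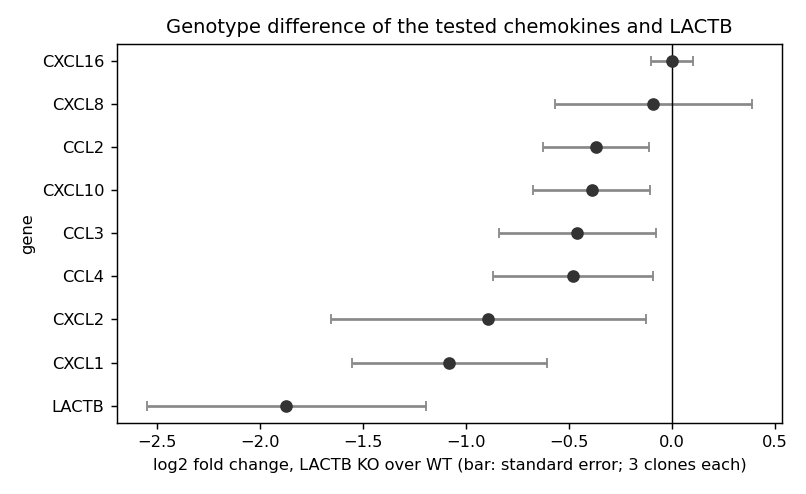
Log2 fold change of LACTB KO over WT for the 8 tested chemokines and LACTB, from sums of counts per clone (3 clones each); points are estimates and bars standard errors. CXCL16 and CXCL8 lie near 0, CXCL1 at -1.08 is the lowest chemokine, and LACTB is at -1.87.

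The comparison of the differentiations, within clones, separated the members into those that moved the same way in all clones and those that did not. Each clone served as its own control in a fit of all 12 libraries over 15530 genes, and 7 of 10 members passed the filter. At an adjusted p under 0.05 edgeR called 0% of the genes, and 9.95% (1546) had an unadjusted p under 0.05, among them 2 of the 7 members, CCL2 and CXCL1. DESeq2 called 278 genes, 1 of them a member, CCL2.

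CCL2 was higher in differentiation 2 in 6 of 6 clones, by 1.29-fold in J, 2.93-fold in K, 2.70-fold in L, 1.66-fold in A, 1.64-fold in B and 2.09-fold in C. The log2 fold change was 0.97 with a standard error of 0.160 (unadjusted p = 0.00029, adjusted p = 0.122, edgeR), and 35 of the 15530 genes had a smaller p. The edgeR call depended on the settings: the adjusted p was 0.0398 without WT clone J, 0.00421 with no expression filter and 1.1e-06 by DESeq2. CXCL1 was also higher in 6 of 6 clones, but by 1.01-fold in K and in B, and by 3.63-fold in J and 4.13-fold in L. Its log2 fold change was 0.92 with a standard error of 0.321 (adjusted p = 0.395, edgeR). Over all genes tested, 3.66% were higher in differentiation 2 in all 6 clones.

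CXCL8, CCL3 and CCL4 went up in 3 clones and down in the other 3, the same clones for each gene. CXCL8 was 8.89-fold higher in differentiation 2 in L, 9.23-fold in C and 1.40-fold in J, and it was 0.764-fold in K, 0.568-fold in A and 0.534-fold in B. CCL3 changed 6.55-fold in L and 7.71-fold in C, and CCL4 4.6-fold and 4.84-fold. The mean changes were within the spread between clones, at a log2 fold change of 0.69 (standard error 0.682) for CXCL8, 0.60 (0.628) for CCL3 and 0.37 (0.522) for CCL4. The median log2 fold change of the 7 members was 0.60, and it was 0.19 without WT clone L and also without LACTB KO clone C, but 0.85 without K, 0.94 without A and 0.97 without B. CXCL10 was higher in 4 of 6 clones (log2 fold change 0.39, standard error 0.313) and CXCL16 in 1 of 6 (-0.09, 0.0683).

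**Figure D3:**
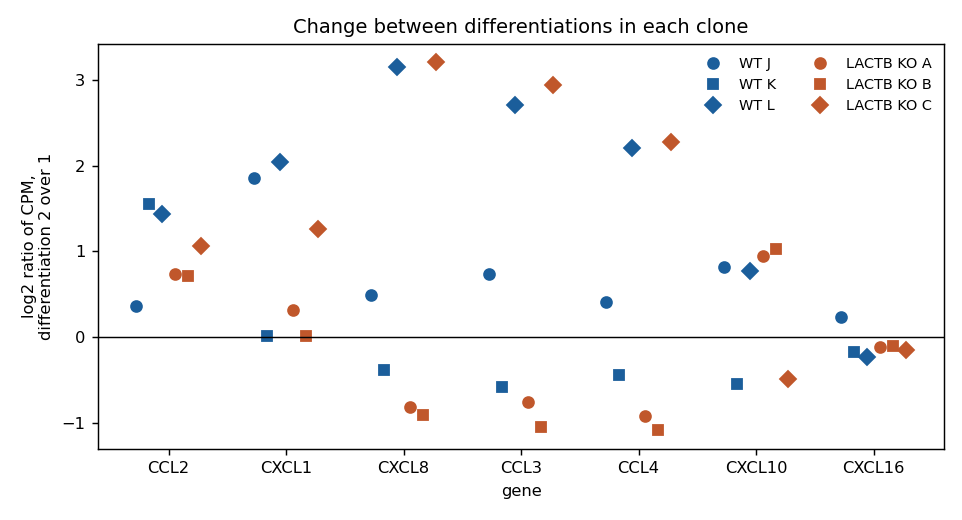
Log2 ratio of CPM in differentiation 2 over differentiation 1 for 7 chemokines, with a point for each clone (WT blue, LACTB KO orange). CCL2 and CXCL1 are above 0 in all 6 clones, and CXCL8, CCL3 and CCL4 are above 0 in J, L and C and below 0 in K, A and B.

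The difference between genotypes did not differ detectably between differentiations. In the interaction test, 0% of 15530 genes had an adjusted p under 0.05 by edgeR, 0.908% (141) had an unadjusted p under 0.05, and DESeq2 also called 0. None of the 7 members was among the 141, and all had an adjusted p of 0.999, with standard errors of 1.31 for CCL3 and 1.44 for CXCL8 on the log2 scale. The 141 rested on which clones were in the fit: it was 1204 without WT clone K, 530 without LACTB KO clone C and 59 without WT clone J, and between 64 and 197 without each of the others. CXCL1 had an unadjusted p of 0.00893 without clone K (adjusted p = 0.650, edgeR), and CCL2 of 0.0115 without clone J (adjusted p = 1, edgeR). In the test of clones within a genotype, 0.0451% of genes (7, LACTB among them) passed after adjustment, and 8.92% were below 0.05 before it. Of the members, CCL2 alone was among the latter, with an unadjusted p of 0.0233 and an adjusted p of 0.448 in edgeR and an adjusted p of 0.0221 in DESeq2.

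How the variation was divided differed between members. For CXCL8, 0.506% of the sum of squares of log2 CPM went with genotype, 21.3% with clones within a genotype, 13.2% with differentiation and 65.0% with none of these, that is with a single library of a clone. CCL3 (61.6%) and CCL4 (57.1%) were likewise divided mostly within clones. For CCL2 the largest part, 54.3%, went with differentiation, and for CXCL16, whose whole variation was small, 62.6% went with clone. These shares are descriptions and were not tested.

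Across the 12 libraries, the levels of CCL3 and CCL4 were almost proportional. Pearson's r of log2 CPM was 0.99 (Spearman's rho 0.98), and without the 2 libraries farthest from the median of CCL3 r was 0.99. CXCL8 had an r of 0.92 with each of them (rho 0.94 and 0.93), and CXCL1 0.83 and 0.82. CCL2 and CXCL16 ran in opposite directions, with r = -0.75 (rho -0.65), which was -0.48 without the 2 libraries farthest from the median of CCL2. CXCL10 had its highest r with CXCL1, 0.42, which fell to 0.02 without the 2 farthest libraries. The libraries share clones and differentiations, so these are descriptions with no test.

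**Figure D4:**
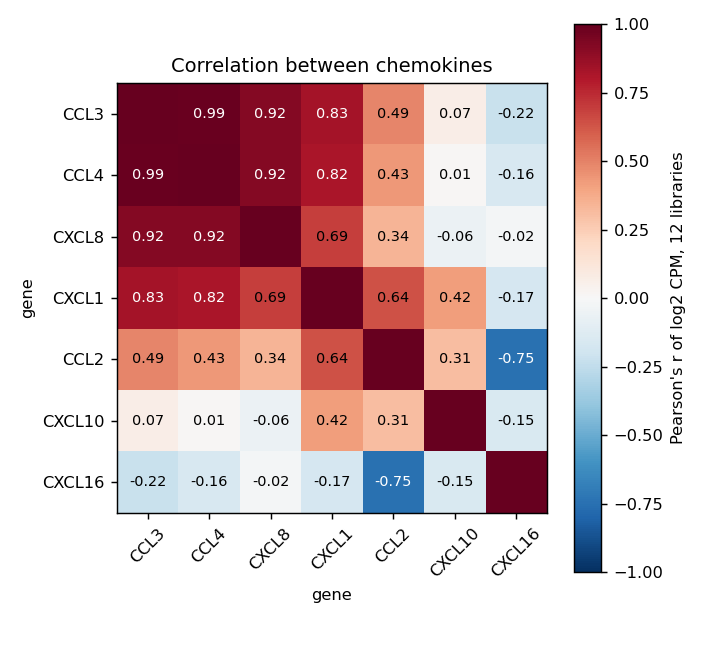
Pearson's r of log2 CPM between 7 chemokines over 12 libraries, from blue (-1) to red (1). CCL3, CCL4, CXCL8 and CXCL1 form a block with r of 0.69 to 0.99, and CCL2 with CXCL16 is the lowest, at -0.75.

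Among all genes that passed the filter, the patterns most like CCL4 were those of CCL3 (r = 0.987), CCL3-AS1 (0.958) and TRIB1 (0.951), and for CCL3 they were CCL4, CCL3L1 (0.957) and CCL3-AS1 (0.953). CCL3-AS1 lies antisense to CCL3, and as no strand setting of the counting is given, their reads cannot be told apart. For CXCL8 they were CCL3L1 (0.962), PPP1R15A (0.953), a stress-induced phosphatase subunit, and TRIB1 (0.953). CCL2 was most like HFE (0.941), TSPAN31 (0.920) and FDPS (0.914), CXCL1 most like NDFIP1 (0.953), ARL1 (0.946) and NPC2 (0.940), CXCL10 most like BNIP3L (0.877), CD302 (0.860) and LY9 (0.858), and CXCL16 most like TTYH2 (0.911), PDE7A (0.895) and ALPK3 (0.832). Each is among the top 3 of 15530 genes over 12 libraries, a choice that favors high values of r.

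In the chemokines, L and C were the most alike of the libraries of different genotypes. Over the 7 members, L1 and C1 were each the nearest library of the other, with a mean absolute log2 difference of 0.190, and so were L2 and C2 (0.257). B1 was nearest to K1 and B2 to K2, but K1 and K2 were both nearest to A2 (0.359 and 0.393), and A1 and A2 were not nearest to J1 and J2. Between the paired libraries J and A, K and B, L and C of a differentiation, the median absolute log2 difference of CXCL8 was 0.28 over 6 pairs, against 1.5 over the 12 other WT and LACTB KO pairs of the same differentiation. It was 0.25 against 1.65 for CCL3 and 0.25 against 1.25 for CCL4. For CXCL10 it was larger in the pairs, 0.83 against 0.35. The pairs K and B and L and C were formed after their libraries were seen to deviate together over all genes. J and A, the clones left over, did not deviate together (-0.0263 and 0.0341). As the pairs were picked from these same data, the comparison is a description with no test.

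The summed level of a list of 20 NF-kB and AP-1 factors and feedback genes was highest in C2 (3384.0 CPM) and L2 (2914.9), the libraries with the most CXCL8, then in J2 (2336.5) and A1 (2141.7). It was lowest in B2 (1393.0), C1 (1421.6), L1 (1502.3) and K2 (1504.7), the libraries with the least CXCL8. Within the list the AP-1 member FOS was at 1162.3 CPM in C2 and 804 in L2, against 96.2 in C1, 143 in L1, 41.8 in B2 and 37.7 in K2. JUNB was at 703 in C2, 605 in L2 and 120 in K2. FOS and JUNB carried much of the difference between these sums, and NFKBIA and NFKBIZ did not share the order. NFKBIA, which encodes the NF-kB inhibitor IkB alpha, was highest in J1 (121 CPM) and lowest in B1 (90.5), and NFKBIZ, at 174 in L2 and 137 in C2, was lowest in B1 (60.9) and K1 (65.2), with K2 at 88.4. FOS and JUNB are immediate early genes that also respond to the handling of cells, and the part of handling in the CXCL8, CCL3 and CCL4 levels was not tested. The stromal marker sum was 1388.1 CPM in L2, 1414.5 in C2, 1489.3 in J2 and 1432.0 in A1, the libraries with the most CXCL8. In those with the least it was 8608.2 in K2, 2720.1 in B2, 2218.1 in L1 and 1298.5 in C1, so 3 of these 4 were among the 4 highest stromal sums. Other libraries went against this order. J1, also among the 4 highest sums (7304.4), had CXCL8 at 86.5 CPM. C1 had both the lowest stromal sum and the lowest CXCL8 (24.9 CPM), and A2, with a sum of 1373.8, had CXCL8 at 67.8 CPM. The part of stromal cells in the CXCL8 levels was not tested.

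**Figure D5:**
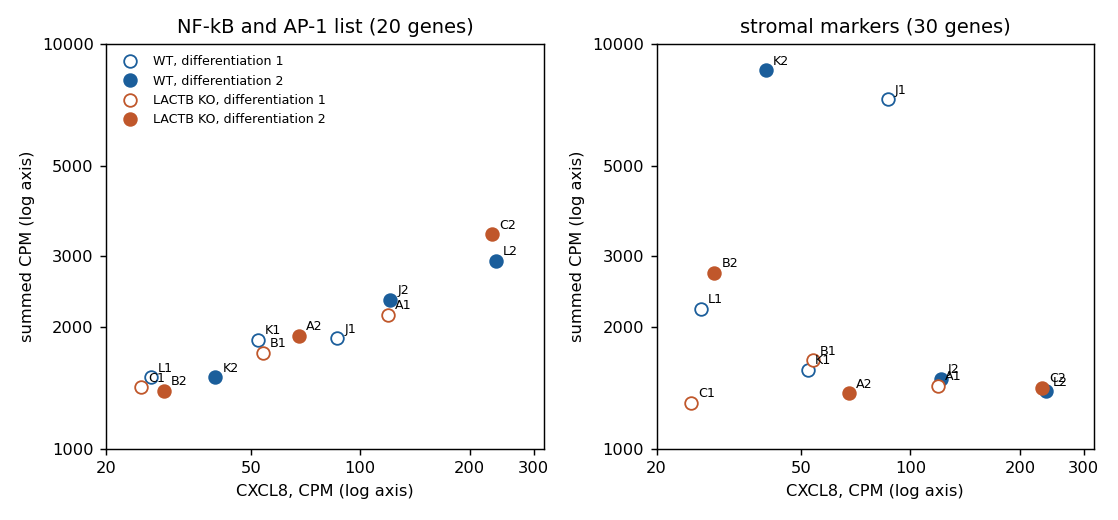
CXCL8 level in CPM (log axis) in the 12 libraries against the summed CPM (log axis) of 20 NF-kB and AP-1 genes (left) and of 30 stromal markers (right), with WT in blue, LACTB KO in orange and differentiation 1 open. C2 and L2 are highest in CXCL8 and in the NF-kB and AP-1 sum, and K2 and J1 stand apart in the stromal sum.

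Between genotypes, 7 of the 20 NF-kB and AP-1 genes had a log2 fold change above 0 and 13 below, with a median of -0.07. Only 1 of the 20 had an unadjusted p under 0.05, against 6.36% of all genes tested. This was RELB (log2 fold change -0.21, adjusted p = 0.760, edgeR). Between differentiations, 17 of 20 were above 0 in differentiation 2 with a median of 0.11. Of the 20, 5 had an unadjusted p under 0.05, against 9.95% of all genes tested, and none an adjusted p under 0.05. Of the 19 inducing cytokines and receptors, IFNG and IL17A were at 0 in all libraries. None of the 15 tested had an unadjusted p under 0.05 between genotypes. TNF was at 81.7 ± 35.8 CPM in WT and 118 ± 88.2 in LACTB KO, where a single library at 293 CPM weighs on the mean. IL1B was at 324 ± 145 and 328 ± 103. IL6, at 0.345 ± 0.247 and 0.159 ± 0.138, was near the limit of detection (log2 fold change -1.12, standard error 0.492). IL10 had -1.08 (0.520).

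CXCL10 is itself an interferon target. Of 14 interferon response factors and targets tested between genotypes, 8 were above 0 and 6 below, with a median of 0.01. Only 1 of the 14 had an unadjusted p under 0.05, against 6.36% of all genes tested. This was GBP1, an interferon-induced GTPase at 0.565 ± 0.471 CPM in WT and 0.194 ± 0.131 in LACTB KO (log2 fold change -1.54, adjusted p = 0.760, edgeR). GBP2 had -1.18 (0.523). Of 10 genes for the decay of short-lived mRNAs and its control, not all of them acting on AU-rich elements, 9 were above 0. None had an unadjusted p under 0.05 between genotypes. ELAVL1, which stabilizes AU-rich mRNAs, had 0.16 (0.080), and ZC3H12A, a ribonuclease that degrades chemokine and cytokine mRNAs, had -0.10 (0.0566).

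Of the other 22 CC chemokines, 6 were tested between genotypes, 2 above 0 and 4 below, with a median of -0.38 and none at an unadjusted p under 0.05. CCL22, a CCR4 ligand whose WT mean of 31.2 CPM per kb is near that of CXCL8, was at 91.0 ± 50.1 CPM in WT and 134 ± 93.5 in LACTB KO (log2 fold change 0.53, standard error 0.520). A single LACTB KO library at 310 CPM weighs on that mean. CCL20, the CCR6 ligand, was at 5.33 ± 2.44 and 3.43 ± 0.501 CPM (-0.62, 0.283). CCL11, CCL17, CCL26 and CCL27 were at 0 in all libraries. Of 15 other CXC, C and CX3C chemokines 4 were tested, 1 above 0 and 3 below, again none at an unadjusted p under 0.05. CXCL3, the third of the GRO genes beside CXCL1 and CXCL2, had at most 10 counts (-0.72, 0.447). CXCL12, a chemokine of stromal cells, had -2.38 (1.05), from 8.11 ± 14.8 CPM in WT to 1.56 ± 2.06 in LACTB KO. The sum of these 15 genes was 43.3 CPM in J1 and 41.1 in K2, the libraries highest in stromal markers, and 2.09 to 8.12 in the others.

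Of the receptors that the members bind, most were detected in these cultures. CCR1, bound by CCL3, was at 159 ± 63.1 CPM in WT and 121 ± 18.1 in LACTB KO. CXCR2, bound by CXCL1, CXCL2 and CXCL8, was at 17.0 ± 4.39 and 16.7 ± 4.66, and CCR2, bound by CCL2, at 12.4 ± 6.01 and 17.5 ± 3.9. CXCR3, bound by CXCL10, was at 19.2 ± 8.18 and 25.9 ± 5.13, whereas CXCR6, bound by CXCL16, was near 0 (0.0122 ± 0.0189 and 0.0247 ± 0.0451). Of 18 receptors 12 were tested between genotypes, 9 above 0 and 3 below, with a median of 0.27 and none at an unadjusted p under 0.05. The smallest p values were those of CCR1 (-0.39, 0.213) and CXCR3 (0.44, 0.305).

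The 5 atypical receptors, which bind chemokines or related ligands without G protein signaling, had group means of at most 2.93 CPM, with CCRL2 up to 8.67 in a library. Of 3 tested, 2 had an unadjusted p under 0.05 between genotypes, against 6.36% of all genes tested. These were ACKR3 (log2 fold change -3.38, standard error 1.03, adjusted p = 0.726, edgeR) and CCRL2 (-1.28, 0.508, adjusted p = 0.760). All 20 genes of receptor signaling were tested, 17 above 0 and 3 below, with a median of 0.07 and none at an unadjusted p under 0.05. PIK3CG and GRK2 had the smallest p of these (0.15, 0.0926 and 0.13, 0.090). Of 11 proteases that act on chemokines 9 were tested, all below 0, with a median of -0.32. Of these 9, only 1 had an unadjusted p under 0.05, against 6.36% of all genes tested. This was MMP2, which cuts CCL7 and CXCL12 (-1.33, 0.523, adjusted p = 0.760, edgeR). FAP had -2.44 (1.03). MMP2, FAP, CXCL12 and ACKR3 are also expressed by stromal cells. Of the 24 stromal markers tested, 15 had an unadjusted p under 0.05, all lower in LACTB KO, against 6.36% of all genes. The median of the 24 was -2.36. The part of stromal cells in the values of MMP2, FAP, CXCL12 and ACKR3 was not tested.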

How the data were processed

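Poly(A) RNA of iMGLs was sequenced in 12 libraries (TruSeq v2 kit, paired reads). The authors checked reads with FastQC, trimmed them with Cutadapt and aligned them to hg38 with STAR. The submitters' processing notes also name GRCh38 and R 4.3.3. The counting tool, annotation version and strand setting are not given in the sources used here. The authors deposited estimated counts per gene, not normalized, of which 10.8% to 11.5% in a library were not whole, and they were rounded here. The study fitted a linear mixed model, which was not used here. Counts were normalized by TMM and filtered by filterByExpr. LACTB KO and WT were compared with counts summed per clone, 3 against 3, and differentiations, interaction and clones on 12 libraries, all by edgeR 4.0.16 with a threshold of 0.05 on the Benjamini-Hochberg adjusted p. The clones are separate lines, and the differentiations are repeats of a clone. The plan had assumed whole counts. Levels are CPM, and log2 CPM used a prior count of 2. Gene positions and exon lengths are from GENCODE 44. Totals were 24153233 to 28406943 counts per library (median 27456867.5), so that 3 counts, the floor used, are a small part of 1 CPM. Alternatives were DESeq2 1.42.0, limma 3.58.1 (voom), other normalization, no filter, each differentiation alone, a stromal covariate, near-identical copies summed, and leaving out each clone in turn. The scripts were tested on simulated data. Members and gene lists were chosen with earlier results of these data known. Besides the 10 members, named genes are the 2 of each list with the smallest p between genotypes and the 3 genes most like each member. ADAM10, TNF, IL1B, FOS, JUNB, NFKBIA and receptors of the members were named after their values were seen.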

Additional observations from a re-analysis of the deposited data

Results flagged for a closer look

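In 3 of 18 groups of 6 libraries tested, the highest library lay farther from the others than Dixon's 95% critical value allows, and chance flags about 1 in 20 groups. CXCL1 was at 37.4 CPM in WT library J2, with the next WT library at 13.8. CXCL2 was at 0.663 CPM in LACTB KO library A1, which is 16 counts, with the next at 0.282. CCL7 was at 0.304 CPM in WT library J1, which is 8 counts, with the next at 0.0747. Of the 6 WT libraries, 5 had 3 counts of CCL7 or fewer.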

How the results depend on the processing

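No member passed the threshold between genotypes under any setting run. The count of genes between genotypes, 0, was 2 with no filter, 208 by DESeq2 (5 higher, 203 lower) and 0 to 1 with a clone left out (1 without WT clone L and 1 without LACTB KO clone B). With the differentiation as a replicate block it was 0 (1093 at an unadjusted p under 0.05), with limma voom 0 (607) and with the clone pairs as a block, a setting chosen after seeing the data, 0 (1384). Both block settings count the 2 libraries of a clone as separate replicates of the genotype, and neither changed a call of a member. Between differentiations the count, 0, was 80 with no filter, 278 by DESeq2, 2 without clone as a block and 0 to 48 with a clone left out (48 without WT clone J), and the count of members was 1 with no filter, 1 by DESeq2 and 0 to 1 with a clone left out. The interaction count was 0 in all settings. Among clones the count, 7, was 196 with no filter and 704 by DESeq2, with 1 member by DESeq2.

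Directions between genotypes turned for CCL2 with the stromal covariate (0.33), for CXCL8 in differentiation 1 alone (0.26), and for CXCL16, near 0, with no filter (0.00826), by DESeq2 (0.00314) and in differentiation 1 alone (0.0195). With a clone left out the log2 fold changes ran from -0.75 to 0.0377 for CCL3, from -0.77 to 0.04 for CCL4, from -0.46 to 0.25 for CXCL8 and from -0.0555 to 0.0913 for CXCL16. Without LACTB KO clone B, which had lost the least LACTB mRNA, they were -0.28 for CCL3, -0.29 for CCL4, 0.25 for CXCL8 and 0.0667 for CXCL16. In the same fit they were -0.55 for CCL2, -0.89 for CXCL1, -0.78 for CXCL2 and -0.46 for CXCL10. Between differentiations the log2 fold change of CCL4 ran from -0.0152 to 0.68. In the interaction they ran from -1.82 to 0.15 for CCL3, from -1.69 to 0.00335 for CCL4, from -1.86 to 0.26 for CXCL8, from -0.32 to 0.66 for CXCL10, from -0.15 to 0.0797 for CXCL16 and from -1.27 to 0.00335 for the median of members. The differences of clone means turned in differentiation 1 alone for CXCL2 (0.12), CXCL8 (0.14) and CXCL16 (0.0297), and for CXCL16 without library J2 (0.0346, chosen after seeing the data). The cause of these changes was not tested. With 3 clones a genotype and 2 pairs that deviate together, chemokine differences under the clone spread could not be seen, and the members with few counts are limited by depth.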
